A study of Mus musculus with 4 samples.

Results

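Serum response factor (Srf), the 3 myocardin-related cofactors Mkl1, Mkl2 and Myocd (MRTFs) and the 3 ternary complex factors Elk1, Elk3 and Elk4 (TCFs) were followed in neural progenitor cells (NPCs) on soft and stiff matrices. These 7 genes were taken by their symbols from 21862 symbols that each of the 4 libraries listed once, and all 7 were found. The cells were N31 NPCs, a single mouse line obtained by differentiating iPSCs in vitro. They carry an rtTA transgene driven by the CAG promoter and a blasticidin-resistance gene at the Oct4 locus. They also carry the Dox-inducible reprogramming genes Oct4, Klf4, c-Myc and Sox2 (OKMS). The control libraries came from N31 NPCs and the shSrf libraries from N31 NPCs expressing the short hairpin RNA shSrf#1, which a retroviral vector transcribes from an H1 promoter. Both lacked EGF and bFGF in the medium and were grown on collagen I-coated matrices of either 0.5 kPa (soft) or 12 kPa (stiff). Per the methods of the study, cells infected with such vectors were selected with puromycin, except when reprogramming efficiency was measured. Whether the control cells carried an empty vector or were selected in this way is not stated. Each of the 4 conditions was 1 library, so no difference has a replicate check, no p-value was computed, and cell population, culture and library preparation cannot be told apart.

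Srf is a MADS-box transcription factor that binds DNA as a dimer at the CArG box, a stretch of A and T letters between CC and GG. It relies on partners to respond to signals. MRTFs are held in the cytoplasm by monomeric actin, reach the nucleus when actin polymerizes, and drive cytoskeletal and contractile genes with Srf. TCFs are ETS-family proteins that bind beside Srf and are phosphorylated by MAP kinases, and they act at growth-factor-responsive early genes. The 2 kinds of partner compete for the same surface of Srf. Mkl1 and Mkl2 are broadly expressed, Myocd is known from cardiac and smooth muscle, and Elk3 can act as a repressor until it is phosphorylated. Srf itself is a known Srf target. The data are mRNA levels and hold nothing on the nuclear location, phosphorylation or protein amount of any of these factors.

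The start region of Srf is shown because the Srf mRNA is both the knockdown target and a candidate target of its own protein. The 300 bases printed run from 250 bases before the start of the 1 listed Srf promoter to 50 after it (RefSeq, GRCm38.p6, chr17:46556113-46556412, minus strand, 5′ to 3′). The annotated span of Srf reaches 46558267, upstream of this window, so distances below refer to the start of the listed promoter only. Capitals mark CArG boxes and the ETS motif CCGGAAG, each searched on both strands.
Srf promoter: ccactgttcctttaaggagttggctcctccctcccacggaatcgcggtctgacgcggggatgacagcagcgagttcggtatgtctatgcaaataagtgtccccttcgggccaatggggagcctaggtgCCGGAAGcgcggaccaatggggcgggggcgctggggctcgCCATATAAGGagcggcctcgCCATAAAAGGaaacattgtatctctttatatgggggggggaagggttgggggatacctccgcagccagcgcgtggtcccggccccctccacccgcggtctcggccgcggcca
It holds 2 CArG boxes, whose first letters lie 82 and 62 bases before the start, and 1 ETS motif 122 bases before it. Of 32851 RefSeq promoters of this length, 1.63% hold a CArG box and 6 hold 2 or more, and 8.86% hold the ETS motif. The promoter table lists 10 promoters for 5 of the 6 cofactors, 2 for Mkl1, 3 for Mkl2, 1 for Elk1, 1 for Elk3 and 3 for Elk4. None of these holds a CArG box within the window, and 1 of those of Elk4 holds the ETS motif (chr1:132007552-132007558). The CCAAT letters, in either orientation, occurred 2 times in the Srf promoter, 2 times in those of Mkl1, 1 time in those of Mkl2 and 3 times in that of Elk1, and 37.4% of all promoters hold them. A match is a description of letters, and a window without a match says nothing about sites elsewhere.

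Levels are given as FPKM, the reads of a gene divided by the length of its transcripts and by the mapped reads, so that genes can be set side by side within a library. Elk3 had the highest level of the 7 genes in control NPCs at 0.5 kPa with an FPKM of 58.3, followed by Mkl1 at 34.6, Srf at 34.4, Elk4 at 30.3, Elk1 at 14.4 and Mkl2 at 10.8. Mkl1 and Srf did not differ beyond counting error there, and every other neighbour in this order did. On the 12 kPa matrix the order was Elk3 at 56.0, Srf at 35.6, Mkl1 at 30.0, Elk4 at 22.9, Elk1 at 15.5 and Mkl2 at 9.63. Elk3 thus led all other cofactors in both control libraries, and it was higher than 78.9% and 78.0% of the 10489 genes that passed the minimum, an FPKM above 2 in each of the 4 libraries. Srf was higher than 64.5% and 65.6% of them.

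In shSrf NPCs, Srf took the fifth place. On the 0.5 kPa matrix Elk3 had an FPKM of 64.7, Elk4 of 26.9, Mkl1 of 23.9, Elk1 of 18.8, Srf of 16.2 and Mkl2 of 8.40. On the 12 kPa matrix Elk3 had 60.7, Mkl1 27.5, Elk4 24.2, Elk1 18.4, Srf 17.4 and Mkl2 8.44. The counting intervals of Elk1 and Srf met on the 12 kPa matrix, and those of all other neighbours were apart. Elk3 was first and Mkl2 sixth in all 4 libraries.

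**Figure D1:**
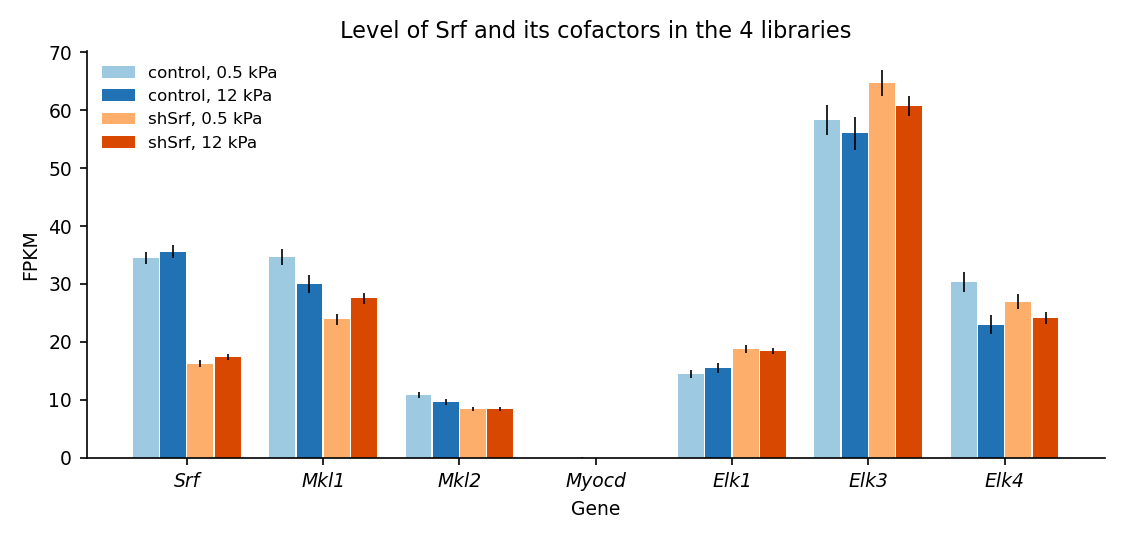
FPKM (vertical axis) of Srf, the MRTFs and the TCFs in the 4 libraries, 1 bar for each library, with bars of error for the 95% counting interval only. Srf stands at 34.4 and 35.6 in the control libraries and at 16.2 and 17.4 in the shSrf libraries, Elk3 is the highest gene in each library, and Myocd is too low to be seen.

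Myocd, the cofactor that drives the smooth muscle program, was at or under the limit of detection. It was listed at 0 in both libraries from the 0.5 kPa matrix, and at 0.0125 in control and 0.00673 in shSrf NPCs on the 12 kPa matrix. By the estimated depth these values correspond to between 0.719 and 2.06 reads, according to the transcript length used. An FPKM of up to 0.0521 in control and 0.0279 in shSrf NPCs is what 3 reads would give in the shallower library of each, so no ratio of Myocd is given. With Myocd at this level, the MRTF transcripts were those of Mkl1 and Mkl2. Mkl1 made up 76.3% and 75.7% of the summed MRTF FPKM in the control libraries and 74.0% and 76.5% in the shSrf libraries.

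The other 6 genes were above an FPKM of 2 in every library, and each value rests on at least 750 estimated reads. Counting error, the only error these files allow, gave standard errors of the log2 ratios between 0.0334 and 0.0672. It covers reads and not culture or library preparation. The total depth was estimated at 24100000 to 62300000 reads a library. The labelled cell type was compared with its markers. Of 14 NPC markers, 7 were above an FPKM of 2 in all libraries, among them Vim, Nes, Sox9 and Notch1, whereas Sox1, Hes5 and Olig2 were listed at 0 in each. Smooth muscle markers summed to an FPKM of 787 and 716 in control and 72.1 and 99.9 in shSrf NPCs. Acta2 and Tagln made up most of the control sum. Both, like Actg2 and Cnn1, are also in the list of MRTF-Srf targets below. For the other markers above the minimum, log2 ratios of shSrf to control were -0.44 and -0.22 for Smtn at 0.5 and 12 kPa. They were -0.76 and -0.22 for Des, -0.33 and 0.02 for Synpo2 and 0.2 and 0.2 for Mylk. Myh11, a defining marker of mature smooth muscle, was between 0.210 and 1.09. Astrocyte markers summed to 341 to 404 in control and 194 to 209 in shSrf NPCs, nearly all of it Gja1, and Gfap, which defines the type, was between 0.0511 and 0.457. Neuron markers summed to 59.4 to 62.8 in control and 120 to 125 in shSrf NPCs, most of it Stmn2 and Map2. Rbfox3 was listed at 0. At 0.5 and 12 kPa, the log2 ratios of shSrf to control were 1.76 and 1.72 for Stmn2 and 0.79 and 0.51 for Map2. They were -0.52 and -0.6 for Snap25, -0.09 and -0.36 for Syt1 and 0.02 and 0.58 for Tubb3, so the list did not move together. Pluripotency markers summed to 3.89 to 4.51, with Dppa5a listed at 0. Of the 7 NPC markers above the minimum, 3 (Pax6, Sox2 and Vim) were higher by more than 1.1-fold in shSrf NPCs at each stiffness. Another 3 (Nes, Notch1 and Slc1a3) were lower. Of all genes, 37.4% and 37.6% were higher and 35.7% and 35.9% lower at 0.5 and 12 kPa. Sox2 is also an OKMS gene, and its level here does not separate the transgene from the endogenous gene. NPC markers summed to 1820 and 1610 in control and 2460 and 2480 in shSrf NPCs, most of it Vim. All of these sums except that of the pluripotency markers were apart between control and shSrf NPCs, but a sum can hide members that moved the other way. Among astrocyte markers, Gja1 was lower in shSrf NPCs (-1.09 and -0.74) and Aldh1l1 higher (0.25 and 0.34). Of the pluripotency markers, all short of the minimum, Pou5f1 was higher (0.81 and 1.39) and Esrrb lower (-1.49 and -2.43). The part of these sums in the ratios of Srf and its cofactors was not tested. In bulk RNA, fewer cells of a type and less RNA per cell cannot be told apart.

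The first question was how far the hairpin lowered Srf, and whether the stiffness of the matrix moved the Srf transcript. Srf had a log2 ratio of shSrf to control of -1.09 on the 0.5 kPa matrix (counting interval -1.16 to -1.02), a level 0.47 times that of control. On the 12 kPa matrix the ratio was -1.03 (-1.10 to -0.96), or 0.49 times. In these comparisons 2.27% and 2.07% of the genes past the minimum had a lower ratio than Srf. The percentages of genes lower by more than 2-fold were 2.86 and 2.22 (1.71 at both stiffnesses), and of genes lower by more than 1.1-fold, the threshold of the study, 35.7 and 35.9. About as many were higher by more than 1.1-fold (37.4% and 37.6%), so a ratio past 1.1-fold between these cell populations was commoner than a ratio within it.

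Between the matrices, the log2 ratio of Srf (stiff to soft) was 0.05 in control NPCs (-0.02 to 0.11) and 0.10 in shSrf NPCs (0.03 to 0.17). Neither passed 1.1-fold, and Srf lay inside the range from the 5th to the 95th percentile of all genes (-0.30 to 0.32 in control and -0.22 to 0.29 in shSrf NPCs). The Srf transcript has a GC content of 60.1%, above that of 95.6% of genes, and ratios of shSrf to control varied with GC content. With each ratio centred on genes of like GC content, the knockdown ratios of Srf were -1.28 and -1.36.

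The MRTF transcripts were lower in the shSrf libraries, by less than Srf and most on the soft matrix. Mkl1, the MRTF that carries actin signals to Srf in most cell types, stood at an FPKM of 34.6 and 30.0 in the control libraries (0.5 and 12 kPa) and at 23.9 and 27.5 in the shSrf libraries. Both control values were above both shSrf values. The log2 ratio of shSrf to control was -0.53 at 0.5 kPa (-0.62 to -0.45) and -0.13 at 12 kPa (-0.21 to -0.04), and the second did not pass 1.1-fold. Mkl2, its paralog, stood at 10.8 and 9.63 in control and at 8.40 and 8.44 in shSrf NPCs, with ratios of -0.36 and -0.19, which both passed 1.1-fold, as did the lower ratios of 28.8% of all genes. Mkl1 has a GC content of 58.6%, and centred on genes of like GC content its knockdown ratios were -0.72 and -0.46, both past 1.1-fold. Mkl2 (49.7%) then had -0.32 and -0.16. The share of all genes past 1.1-fold after this centring was not taken.

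The TCF transcripts did not move together. Elk1, the TCF best known as a target of Erk, stood at an FPKM of 14.4 and 15.5 in control and 18.8 and 18.4 in shSrf NPCs. Its ratios of shSrf to control were 0.38 at 0.5 kPa (0.29 to 0.47) and 0.25 at 12 kPa (0.16 to 0.34), and Elk1 was higher by more than 1.1-fold at both stiffnesses, as were 30.3% of all genes. Elk3, also known as Net, had 58.3 and 56.0 in control and 64.7 and 60.7 in shSrf NPCs. Its ratios were 0.15 and 0.12, at the edge of 1.1-fold, and the first passed it. Elk4, also known as Sap1, had 30.3 and 22.9 in control and 26.9 and 24.2 in shSrf NPCs, so the shSrf values lay between the control values. Its ratios were -0.18 and 0.08, opposite in sign. Centred on genes of like GC content, the knockdown ratios were 0.26 and 0.17 for Elk1 and 0.19 and 0.18 for Elk3. For Elk4 they were -0.14 and 0.14. Elk3 then passed 1.1-fold upwards at both stiffnesses, and Elk4 passed it downwards at 0.5 kPa and upwards at 12 kPa. The share of all genes past 1.1-fold after this centring was not taken, so it gives no background for these passes.

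Together, 4 of the 6 genes above the minimum were lower and 2 higher by more than 1.1-fold at 0.5 kPa, beside 35.7% and 37.4% of all genes. At 12 kPa 2 were lower and 1 was higher, beside 35.9% and 37.6%. With such shares among all genes, the counts say little of these genes as a group. Past 1.2-fold, Srf, Mkl1 and Mkl2 were lower and Elk1 was higher at 0.5 kPa, beside 25.3% and 26.5% of all genes, and Srf was lower and none was higher at 12 kPa, beside 25.8% and 27.5%. Past 1.5-fold, where 9.28% and 8.88% of genes were lower and 9.19% and 10.2% higher, Srf was the only one of the 6, and the same held past 2-fold, where 2.45% and 2.74% of genes were higher. No cofactor reached 1.5-fold in any of the 4 ratios of the deposited values, but Mkl1 did at 0.5 kPa when centred on genes of like GC content (-0.72). The comparisons at 0.5 and 12 kPa use different libraries, but each stiffness comparison shares 1 library with each knockdown comparison, so the 4 ratios of a gene are not independent.

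**Figure D2:**
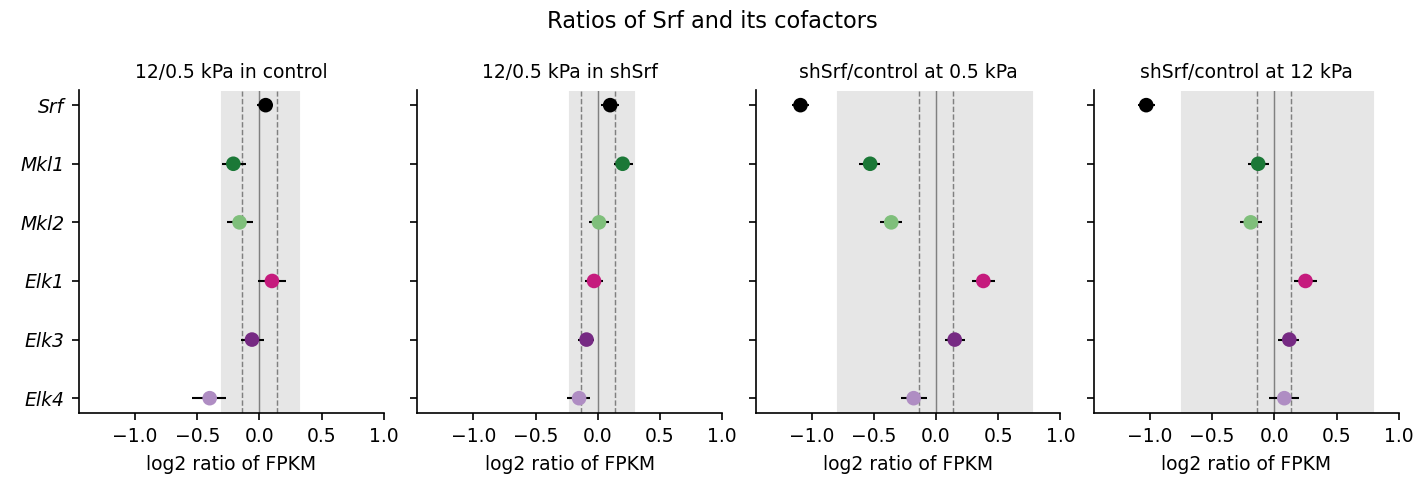
Log2 ratios of FPKM (horizontal axis) of Srf and the 5 detected cofactors in the 4 comparisons, with bars for the 95% counting interval, a grey band from the 5th to the 95th percentile of all genes above the minimum and dashed lines at 1.1-fold. Srf at -1.09 and -1.03 lies outside the band in both knockdown panels, and Elk4 at -0.40 lies outside it in the first panel.

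The next question was whether the cofactors followed the stiffness of the matrix. In control NPCs, 3 of the 6 genes passed 1.1-fold downwards on the stiff matrix, beside 16.9% of all genes, and none was higher, beside 17.9%. Elk4 had a log2 ratio of -0.40 (-0.54 to -0.27), 0.76 times its level on the soft matrix, and 2.61% of genes had a lower ratio. It was the only one of these genes past 1.2-fold, a threshold that 6.72% of genes passed downwards and 7.27% upwards. Mkl1 had -0.21 (-0.30 to -0.11) and Mkl2 -0.16 (-0.26 to -0.05), with 9.87% and 14.1% of genes lower. Elk1 had 0.10 and Elk3 -0.06, both within 1.1-fold. Thus neither Srf nor any of its detected cofactors had a higher transcript level past 1.1-fold on the stiff matrix in control NPCs.

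In shSrf NPCs the picture differed for Mkl1. Its log2 ratio of stiff to soft was 0.20 there (0.13 to 0.28) and was the only 1 of the 6 genes higher by more than 1.1-fold, beside 17.6% of all genes. The difference between its ratios, control minus shSrf, was -0.41 (-0.53 to -0.29), and 5.28% of genes had a lower difference. Of all genes, 3.52% passed 1.1-fold downwards in control and upwards in shSrf NPCs, as Mkl1 did, and 2.49% the opposite way. Centred on genes of like GC content, its ratio in shSrf NPCs was 0.12, within 1.1-fold. Elk4 was lower in shSrf NPCs as well, with a ratio of -0.15 (-0.25 to -0.06), the 1 gene past 1.1-fold downwards beside 13.0% of all genes. Elk4 therefore was lower past 1.1-fold on the stiff matrix in both cell populations, as were 3.24% of all genes, with a difference of -0.25 between the ratios. Mkl2 had 0.01, Elk1 -0.03 and Elk3 -0.09. None of the 6 passed 1.2-fold in shSrf NPCs, beside 3.14% of genes lower and 5.99% higher. Larger ratios between the matrices were rare among all genes. Past 1.5-fold, 0.963% were lower and 0.858% higher in control and 0.324% and 0.458% in shSrf NPCs, and past 2-fold 0.105% and 0.124% in control and 0.0286% and 0.0572% in shSrf NPCs. With 1 library for each condition, none of these differences between the cell populations was tested.

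**Figure D3:**
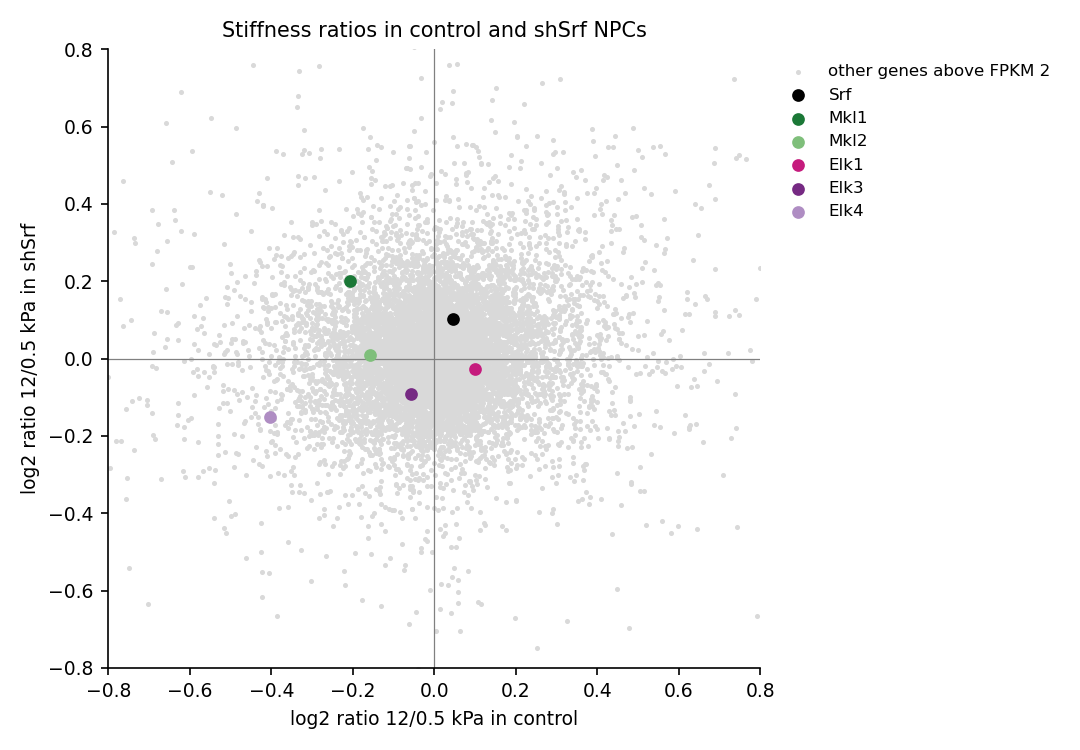
Log2 ratio of 12 to 0.5 kPa in control (horizontal axis) and in shSrf NPCs (vertical axis), with 1 point a gene, coloured for Srf and the 5 detected cofactors and grey for all other genes above an FPKM of 2 (80 genes lie outside the axes of ±0.8). Mkl1 lies in the upper left at -0.21 and 0.20, and Elk4 in the lower left at -0.40 and -0.15.

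Because FPKM is scaled by length, the transcripts of the cofactors can be set against those of Srf within each library. The summed FPKM of the MRTFs was 45.4 and 39.6 in control NPCs at 0.5 and 12 kPa and 32.3 and 35.9 in shSrf NPCs. That of the TCFs was 103 and 94.4 in control and 110 and 103 in shSrf NPCs. TCF transcripts thus exceeded MRTF transcripts in each library. Their ratio was 2.27 (counting interval 2.17 to 2.38) and 2.38 (2.26 to 2.51) in control and 3.42 (3.28 to 3.56) and 2.88 (2.78 to 2.97) in shSrf NPCs, and both shSrf values were above both control values. Of the TCF sum, Elk3 held 56.5% to 59.3%, Elk4 held 29.4% in control NPCs on the soft matrix and 23.4% to 24.3% in the other libraries, and Elk1 held 14.0% and 16.4% in control and 17.0% and 17.9% in shSrf NPCs.

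For each Srf transcript there were 2.99 TCF transcripts in control NPCs at 0.5 kPa and 2.65 at 12 kPa, against 6.80 and 5.93 in shSrf NPCs. For MRTFs the numbers were 1.32 and 1.11 against 1.99 and 2.06. Mkl1 alone stood at 1.00 and 0.84 for each Srf transcript in control and at 1.47 and 1.58 in shSrf NPCs. On the stiff matrix the MRTF number was lower in control NPCs and within counting error in shSrf NPCs. The denominator is the gene that the hairpin targets. From control to shSrf NPCs the MRTF sum changed by -28.8% at 0.5 kPa and -9.4% at 12 kPa, and the TCF sum by 7.1% and 9.5%. The higher MRTF numbers in shSrf NPCs thus come from the lower Srf denominator alone, and the higher TCF numbers mostly from it. The numbers are of transcripts and not of protein. Neither the sums nor their ratios were centred on GC content. Genes of like GC content had median knockdown ratios of 0.19 and 0.33 for Srf and Mkl1 (0.5 and 12 kPa). The medians were 0.11 and 0.08 for Elk1, -0.04 and -0.03 for Mkl2 and -0.04 and -0.06 for Elk3 and Elk4. The counting intervals do not cover such differences between control and shSrf NPCs.

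**Figure D4:**
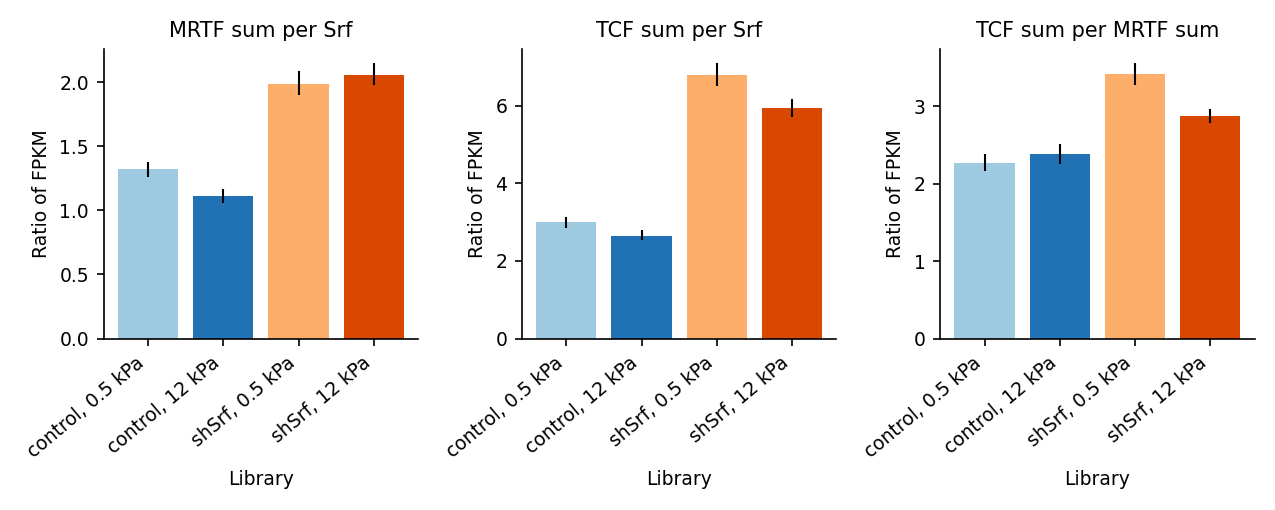
Ratio of FPKM (vertical axis) of summed MRTFs to Srf, summed TCFs to Srf and summed TCFs to summed MRTFs in the 4 libraries, with the 95% counting interval. The values are not centred on GC content. TCF per Srf is 2.99 and 2.65 in the control and 6.80 and 5.93 in the shSrf libraries, and TCF per MRTF is 2.27 and 2.38 against 3.42 and 2.88.

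Genes that act upstream of the cofactors were taken from fixed lists. Of 19 genes of the actin route to MRTFs, 18 were above the minimum. In control NPCs 5 were lower and 2 higher by more than 1.1-fold on the 12 kPa matrix, beside 16.9% and 17.9% of all genes, and in shSrf NPCs none passed in either direction, beside 13.0% and 17.6%. Those lower in control NPCs were Diaph1 (-0.22), a formin that builds actin filaments, Limk1 (-0.15) and Limk2 (-0.32), kinases that inactivate cofilin, Lmna (-0.41), a nuclear lamin, and Rhob (-0.27), a small GTPase. Scai, which binds MRTFs and represses them, was higher in control NPCs (0.48), from 8.90 to 12.4, and had 8.62 and 8.49 in shSrf NPCs (-0.02). Diaph3, another formin, was also higher in control NPCs (0.14) and had the lowest mean knockdown ratio of the list, with -0.92 at 0.5 and -1.06 at 12 kPa. Limk2 had the highest, with 0.58 and 0.96. At 0.5 kPa 12 genes of the list were lower and 2 higher in shSrf than in control NPCs, beside 35.7% and 37.4% of all genes. At 12 kPa 11 were lower and 3 higher, beside 35.9% and 37.6%. Mical2, which oxidizes nuclear actin, fell short of the minimum with 4.04 and 2.98 in control and 1.69 and 1.85 in shSrf NPCs.

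All 13 genes of the Ras and MAP kinase route to TCFs were above the minimum. In shSrf against control NPCs 4 were higher and 4 lower at 0.5 kPa, beside 37.4% and 35.7% of all genes, and 5 were higher and 5 lower at 12 kPa, beside 37.6% and 35.9%, so these counts lie near those of all genes. Mapk3, which encodes Erk1, was higher in shSrf NPCs (0.85 and 0.41), with an FPKM of 100 and 124 in control and 181 and 165 in shSrf NPCs. Mapk8, which encodes Jnk1, was lower (-0.80 and -0.77). Between the matrices, 1 gene was higher and 2 lower in control NPCs, Mapk3 (0.31), Mapk8 (-0.15) and Nras (-0.30), beside 17.9% and 16.9% of all genes. In shSrf NPCs Nras was also lower (-0.16), and no gene of the list was higher. Araf had the lowest difference between the stiffness ratios, with -0.11 in control and 0.11 in shSrf NPCs.

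Relatives of the 7 genes gave a comparison, in which 37.4% of all genes were higher and 35.7% lower in shSrf NPCs at 0.5 kPa, and 37.6% and 35.9% at 12 kPa. Of 9 MADS-box relatives and other Srf partners, 3 were above the minimum, all of them Mef2 factors. Mef2d was higher in shSrf NPCs at both stiffnesses (0.56 and 0.52), Mef2c at 0.5 kPa (0.37) and not at 12 kPa (0.07), and Mef2a at neither (0.11 and 0.05). Mef2c alone passed between the matrices, in control NPCs (0.19), where 17.9% of all genes were higher. Gata6, which was below the minimum, had 0.413 and 0.305 in control and 2.65 and 3.43 in shSrf NPCs. Of 11 other ETS factors 9 were above it. In control NPCs 4 were lower on the stiff matrix, Etv4 (-0.36), Etv6 (-0.34), Ets2 (-0.23) and Elf1 (-0.19), beside 16.9% of all genes, and none was higher, beside 17.9%. In shSrf NPCs Etv5 (-0.23), Ets1 (-0.19) and Etv4 (-0.18) were lower, beside 13.0% of all genes, and Elf1 (0.15) was higher, beside 17.6%. Gabpa had the lowest mean knockdown ratio of them, with -0.60 and -0.61, and Etv6 the highest, with 0.12 and 0.55. At 0.5 kPa Elf1, Ets2 and Gabpa were lower in shSrf NPCs and Etv1 (0.17) was higher, and at 12 kPa Elf1, Ets1, Etv5 and Gabpa were lower and Etv6 was higher.

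Last, the targets that the 2 kinds of partner are known for were compared. Of 26 MRTF-Srf target genes, 24 were above the minimum. The other two passed it in the control libraries only, Actg2 with 8.61 and 9.13 in control and 0.682 and 0.339 in shSrf NPCs, and Cnn1 at 12 kPa with 76.1 in control and 1.32 in shSrf NPCs. In shSrf NPCs, 23 of the 24 were lower by more than 1.1-fold at each stiffness and none was higher, beside 35.7% and 35.9% of all genes lower, and 12 at 0.5 kPa and 8 at 12 kPa were lower by more than 2-fold, beside 2.86% and 2.22% of all genes. The median log2 ratio of the list was -0.98 and -0.82, that of all genes 0.0106 and 0.0098. The exceptions to 1.1-fold were Actb at 0.5 kPa (-0.02) and Zyx at 12 kPa (-0.13). Among the 24 genes, the lowest mean ratio was that of Acta2, smooth muscle actin (-5.58 and -5.17), and the highest that of Actb, cytoplasmic actin, whose monomer holds MRTFs (-0.02 and -0.19). Actb stood at an FPKM of 2330 in both control libraries and of 2300 and 2050 in the shSrf libraries.

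Between the matrices, 9 of these 24 targets were lower and 1, Myl9, was higher on 12 kPa in control NPCs, beside 16.9% and 17.9% of all genes. In shSrf NPCs 3 were lower, Actb, Actg1 and Fhl2, and 10 were higher, beside 13.0% and 17.6%, and the medians were -0.07 and 0.11.

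A CArG box lies within the promoter window of 7 of the 22 MRTF-Srf targets that have a listed promoter (31.8%), against 1.81% of all genes with one. Windows of 30 bases around 4 of these boxes (RefSeq, GRCm38.p6), chosen after their values were seen, are shown with the box in capitals because they come from genes with unlike knockdown ratios.
Myl9 chr2:156775293-156775322 (+ strand): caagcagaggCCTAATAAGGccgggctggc
Fhl1 chrX:56779571-56779600 (+ strand): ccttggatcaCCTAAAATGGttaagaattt
Vcl chr14:20929161-20929190 (+ strand): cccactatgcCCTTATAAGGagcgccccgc
Actg1 chr11:120348566-120348595 (- strand): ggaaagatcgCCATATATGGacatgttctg
Myl9, a myosin light chain, had log2 ratios of shSrf to control of -3.78 and -3.50 and Fhl1, a LIM-domain protein, of -2.29 and -1.56. Vcl, a focal adhesion protein, had -1.20 and -0.94, and Actg1, the second cytoplasmic actin, -0.18 and -0.33.

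The list of TCF-Srf early genes held 12 genes, of which Junb was listed more than once and left out, and 7 of the other 11 were above the minimum. In shSrf NPCs 5 were higher and 2 lower by more than 1.1-fold at each stiffness, beside 37.4% and 37.6% of all genes higher and 35.7% and 35.9% lower, with a median log2 ratio of 0.77 and 1.34. Btg2, an antiproliferative gene, stood at an FPKM of 3.57 and 3.49 in control and 13.6 and 13.2 in shSrf NPCs. Fos had 7.85 and 4.67 in control and 24.1 and 16.6 in shSrf NPCs, Egr1 had 87.0 and 36.2 against 196 and 137, and Ier2 and Mcl1 were the other higher genes. Nr4a1 (-0.70 and -0.63) and Egr3 (-0.48 and -0.19) were lower. On the 12 kPa matrix 4 of the 7, Egr1, Egr3, Fos and Ier2, were lower than on the 0.5 kPa matrix in both cell populations, as were 3.24% of all genes (16.9% in control and 13.0% in shSrf NPCs), and none was higher in either. Egr1 had the lowest difference between the ratios, with -1.27 in control and -0.51 in shSrf NPCs, and Mcl1 the highest, with -0.02 and -0.05. Fosb, Egr2, Egr4 and Arc did not reach the minimum in all libraries. Of the 8 genes with a listed promoter, 1, Egr2, holds a CArG box in the window.

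**Figure D5:**
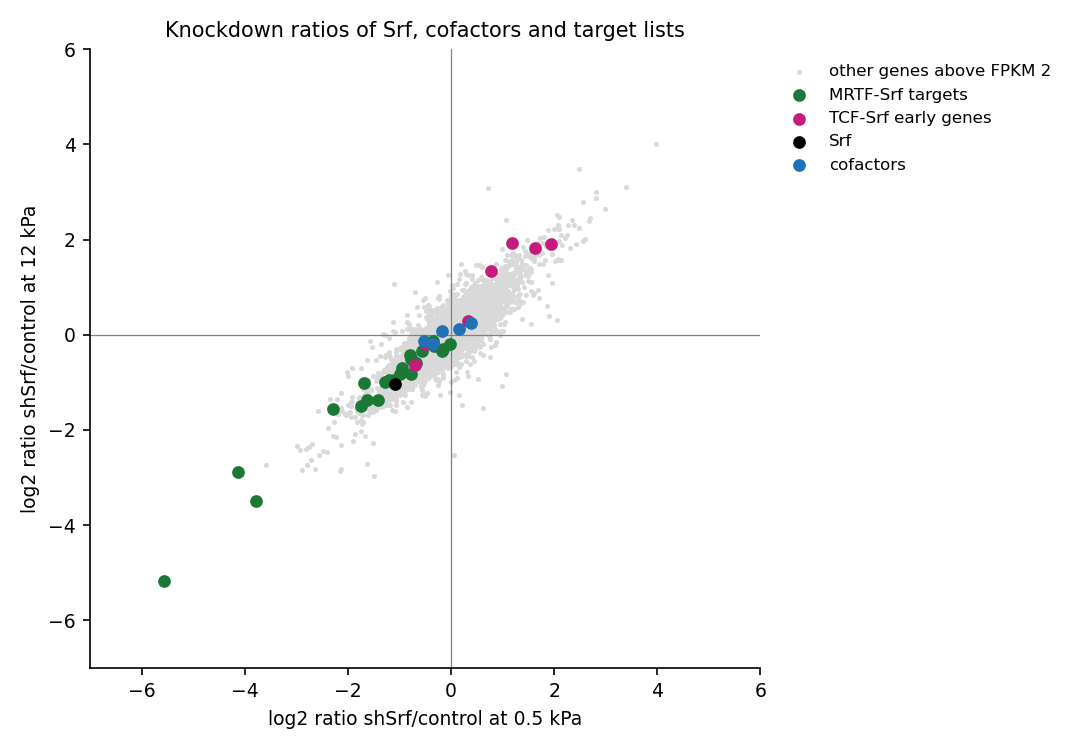
Log2 ratio of shSrf to control at 0.5 kPa (horizontal axis) and at 12 kPa (vertical axis), with 1 point a gene, for Srf, the 5 detected cofactors, 24 MRTF-Srf targets, 7 TCF-Srf early genes and, in grey, the other genes above an FPKM of 2. Acta2 lies lowest at -5.58 and -5.17, the cofactors stay between -0.53 and 0.38, and 5 of the 7 early genes lie in the upper right.

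Genes with the pattern most like each of the 6 genes were taken by the smallest distance between log2 levels over the 4 libraries, centred on their mean. For Srf these were Sorcs1 (distance 0.040), Hps3 (0.053), Ctnnd1 (0.055), Tmem230 (0.056) and Ftl1 (0.063), which all had knockdown ratios between -1.15 and -0.98. None of the cofactors was near Srf, since Mkl1, the nearest, was at rank 2061 with a distance of 0.752. For Mkl1 they were Ss18l1 (0.005), Abcb6 (0.021) and Clk3 (0.024), and for Mkl2 Rprd1b, Gcsh and Ptgfrn (0.018 to 0.023). Mkl1 and Mkl2 were each other's nearest among the 6, with a distance of 0.152. Elk1 was nearest to Kdsr, Srprb and 2810021J22Rik (0.014 to 0.019) and Elk3 to Commd7, Cacybp and Ebna1bp2 (0.010 to 0.013). Elk4 was nearest to Tbc1d19 (0.030), Etv4 (0.039), another ETS factor, and Tes (0.049). With 4 libraries many genes share any pattern, so such likeness is a description only.

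On GRCm38.p6 Srf lies on chromosome 17 from 46546838 to 46558267, Mkl1 (now Mrtfa) on chromosome 15 from 81012281 to 81190736, Mkl2 (now Mrtfb) on chromosome 16 from 13256056 to 13417529 and Myocd on chromosome 11 from 65173608 to 65269989. Elk1 lies on chromosome X from 20933395 to 20950608, Elk3 on chromosome 10 from 93247415 to 93311159 and Elk4 on chromosome 1 from 132007577 to 132026448. The annotated span of Mkl1 overlaps that of Sgsm3, Elk3 that of Cdk17 and Elk4 that of Mfsd4a. The library kit keeps the strand, but whether the quantification used it is not stated, so reads in an overlap may have been divided between the genes.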

How the data were processed

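RNA from 4 conditions was sequenced from TruSeq Stranded mRNA libraries, 1 for each condition, with single-end reads. Per the submitters' processing notes and the methods, the authors trimmed reads with cutadapt 1.9.1, mapped them to mm10 with TopHat2 2.1.0 and Bowtie2 2.2.8 on the GENCODE M14 annotation, kept a mapping quality of at least 20, and deposited FPKM values from Cufflinks 2.2.1. FPKM were used as deposited, without a pseudocount. Each file had 21997 rows, and 63 symbols listed more than once were left out. Genes above an FPKM of 2 in all libraries (10489) were compared, and a ratio past 1.1-fold, as in the study, was taken as lower or higher. No test was run.

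Depth was estimated from whole-read steps among values under 0.1, with lengths from GENCODE M1 transcripts less 200 nucleotides. Counting intervals (95%) used the shortest coding transcript over 1000 nucleotides. GC content came from the longest transcript and matched 91.2% of the compared genes. Depth and ratio calculations were tested on simulated data. The 7 genes, the lists and the rule for named genes (all 7, the extremes of each list, the genes most alike) were chosen with earlier results of these data known. Alternatives were other minimums and thresholds, a pseudocount of 1, median centring, scaling to the 75th percentile and, added after the data were seen, centring within 50 GC bins. Calculations ran in Python 3.11.15 with scipy 1.17.1, numpy 2.4.6 and pandas 2.3.3, and plots were drawn with matplotlib 3.10.9. The result for 1 gene of the lists is not reported here.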

Additional observations from a re-analysis of the deposited data

Results flagged for a closer look

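In each of the following genes the ratio of 12 to 0.5 kPa passed 1.1-fold in opposite directions in control and shSrf NPCs, and the difference was not tested, as no condition had a replicate. For Mkl1 the log2 ratios were -0.21 (control) and 0.20 (shSrf), a difference of -0.41. Centred on genes of like GC content, its shSrf ratio was 0.12, within 1.1-fold, and the other flagged genes were not looked at in this way. Among MRTF-Srf targets the difference was -1.24 for Tagln (-0.30 and 0.94), -0.73 for Fhl1 (-0.16 and 0.57) and -0.68 for Tagln2 (-0.46 and 0.21). It was -0.34 for Elf1, an ETS factor (-0.19 and 0.15), -0.54 for Des, a muscle intermediate filament (-0.35 and 0.19), and -0.55 for Tubb3, a neuronal tubulin (-0.34 and 0.21). All 7 were lower on the stiff matrix in control and higher in shSrf NPCs. They are 7.14% of the 98 genes compared, which include lists chosen with earlier results known, beside 3.52% of all genes above the minimum, and 0 of the 98 went the opposite way, beside 2.49%.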

How the results depend on the processing

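No paired analysis was possible because the labels give 1 library to each condition. With a pseudocount of 1, centring on the median or scaling to the 75th percentile, all 24 ratios of the 6 detected genes moved by less than their 95% counting error. The MRTF and TCF sums did too under the scaling, and they were not centred on GC content. Centring within GC bins, added after seeing the data, left 17 of the 24 ratios within it, turned no called ratio, and gave -1.28 and -1.36 for the knockdown ratios of Srf, 0.02 for its stiffness ratio in shSrf NPCs, -0.72 and -0.46 for those of Mkl1, 0.12 for its stiffness ratio in shSrf NPCs and 0.26 for Elk1 in the knockdown at 0.5 kPa. With it 0 of the 6 genes were higher on 12 kPa in shSrf NPCs (1 without it). In the knockdown at 12 kPa 3, Elk1, Elk3 and Elk4, were higher (1 without it) and 3 were lower (2 without it). The share of all genes past 1.1-fold after this centring was not taken, so these counts have no background. With 1.2-fold, 1 gene was lower on 12 kPa in control NPCs, 0 were lower and 0 higher in shSrf NPCs, 1 was higher in the knockdown at 0.5 kPa, and 1 was lower and 0 higher at 12 kPa. With 1.5 and 2-fold, 1 was lower in the knockdown at each stiffness (Srf), 0 were higher, and 0 passed between the matrices. A minimum of 1 or 5 could not change a count of the 6, whose lowest FPKM was 8.40. Without a minimum, Myocd was still left out by its values of 0, so that count could not change either. For the other gene lists, of 88 counts 25 moved by over 1.5 times with 1.2-fold, 51 with 1.5-fold, 58 with 2-fold, 9 with a minimum of 1 and 17 with a minimum of 5.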
